A study of Homo sapiens with 6 samples.

Results

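NF-κB regulators and the NF-κB target gene SOD2 were compared between control and TβRIII-KD cultures of SUM159, an established line of human breast cancer cells that serves as a model of mesenchymal stem-like triple negative breast cancer. The group was a list of 10 genes given by symbol: SOD2, ICAM1, TNFAIP2, NFKB1, NFKB2, RELB, NFKBIA, TNFAIP3, IRAK2 and BIRC3. Each gene was taken from the transcript cluster, a group of array probes for 1 gene or transcript, that carried its symbol alone. This found 9 of the 10 genes among 18276 genes, each with 1 such transcript cluster. BIRC3 was not matched to a transcript cluster in the annotation used and is not analysed here.

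The series holds 6 Affymetrix Human Gene 1.0 ST arrays, 3 from control and 3 from TGFBR3KD samples, each labelled as day 6 of three-dimensional matrigel culture without a treatment. TGFBR3 encodes TβRIII, the type III TGF-β receptor. According to the methods, knockdown lines were made by lentiviral delivery of a short hairpin RNA and puromycin selection, and SUM159 was kept in medium with serum and hydrocortisone. The labels name the control group only as control. Each group is 1 cell population, so the knockdown and other differences of the populations cannot be told apart. Whether the arrays within a group stand for separate cultures is not stated in the sources used here, so a p-value here reflects how far these samples scatter, and that scatter may be technical. In bulk RNA, fewer cells of a type and less RNA per cell cannot be told apart.

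NF-κB is a family of transcription factor dimers built from the subunits encoded by RELA, REL, RELB, NFKB1 and NFKB2. In resting cells the dimers are held in the cytoplasm by IκB proteins such as IκBα, the product of NFKBIA, until IκB kinase marks these for destruction after signals from TNF, interleukin 1 or Toll-like receptors. Freed dimers bind κB sites and raise target genes, which include the pathway's own inhibitors NFKBIA and TNFAIP3, the adhesion receptor ICAM1 and SOD2, the manganese superoxide dismutase of mitochondria. In triple negative breast cancer cells, NF-κB is known for cytokine production and survival signalling.

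TGFBR3 itself had a mean log2 signal of 10.75 ± 0.17 (SD, n = 3) in controls and 9.96 ± 0.22 (SD, n = 3) in TβRIII-KD, and its fold change passed the test (adjusted p = 0.0145, limma). The adjusted p of TGFBR3 was 0.0770 when control 1 was left out, 0.0554 for control 2 and 0.0625 for TβRIII-KD 2, and 0.198 by the unpaired test of the study's general statistics. The array medians lay between 7.67 and 7.71, correlations across transcript clusters were 0.995 to 0.996 among control arrays and 0.992 to 0.994 among TβRIII-KD arrays, and TβRIII-KD 3 lay apart from the others on the second principal component, which held 21.9% of the variance. The mesenchymal markers VIM, CD44 and FN1 had signals above those of 98.8% or more of all transcript clusters, while PGR and CDH1 were at percentiles 8.15 and 11.2. ESR1 was at percentile 24.5 and ERBB2 at percentile 73.9. These percentiles rank probe signals and not amounts of RNA.

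SOD2 was the member that passed the test in limma, and the other 8 members measured did not pass it. A difference between the fold change of SOD2 and those of the other members was not tested. The study's cutoff asked for an adjusted p below 0.05 together with a log2 fold change beyond 0.5 in either direction. At this cutoff 1 of 9 members was lower and 0 were higher in TβRIII-KD. Of all 22148 transcript clusters, 2.26% passed this cutoff, 1.49% lower and 0.777% higher. Without the fold limit the count of members was also 1, against 3.35% of all transcript clusters. By limma without adjustment, 5 of 9 members had a p under 0.05, against 15.2% of all transcript clusters, with 4 lower (background 8.25%) and 1 higher (background 6.94%). The mean was lower in TβRIII-KD for 7 of 9 members and for 45.3% of all transcript clusters. The arrays of the groups did not overlap for 8 of 9 members, against 20.7% of all transcript clusters. Of these, 6 were lower in TβRIII-KD, against 10.7% of all transcript clusters, and 2 were higher, against 10%. The median log2 fold change was -0.13 over the members and 0.01 over all transcript clusters. The members were listed with earlier results of these arrays known, so these shares describe the list. The shares over all transcript clusters are also the background for the counts of the other gene lists.

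SOD2, which converts superoxide to hydrogen peroxide in the mitochondrial matrix, had log2 signals of 11.25, 11.22 and 11.36 on control arrays 1 to 3. On TβRIII-KD arrays 1 to 3 it had 10.66, 10.34 and 10.85. Every TβRIII-KD array lay below every control array, and the TβRIII-KD arrays were spread more widely (SD 0.26) than the controls (SD 0.07). In limma SOD2 fell by 0.66 on the log2 scale, with an SE of 0.12, a 95% confidence interval of -0.95 to -0.38 and an adjusted p of 0.0263. The control signal was thus 1.58 times that of TβRIII-KD. An exact permutation test of the 6 arrays was two-sided and gave p = 0.1, which is the lowest value that groups of 3 can reach. The limma adjusted p of SOD2 was 0.0997 without control 1, 0.0671 without control 2, 0.102 without control 3 and 0.0638 without TβRIII-KD 1, and lay between 0.00741 and 0.229 over all alternatives, while its fold change lay between -0.78 and -0.52.

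**Figure D1:**
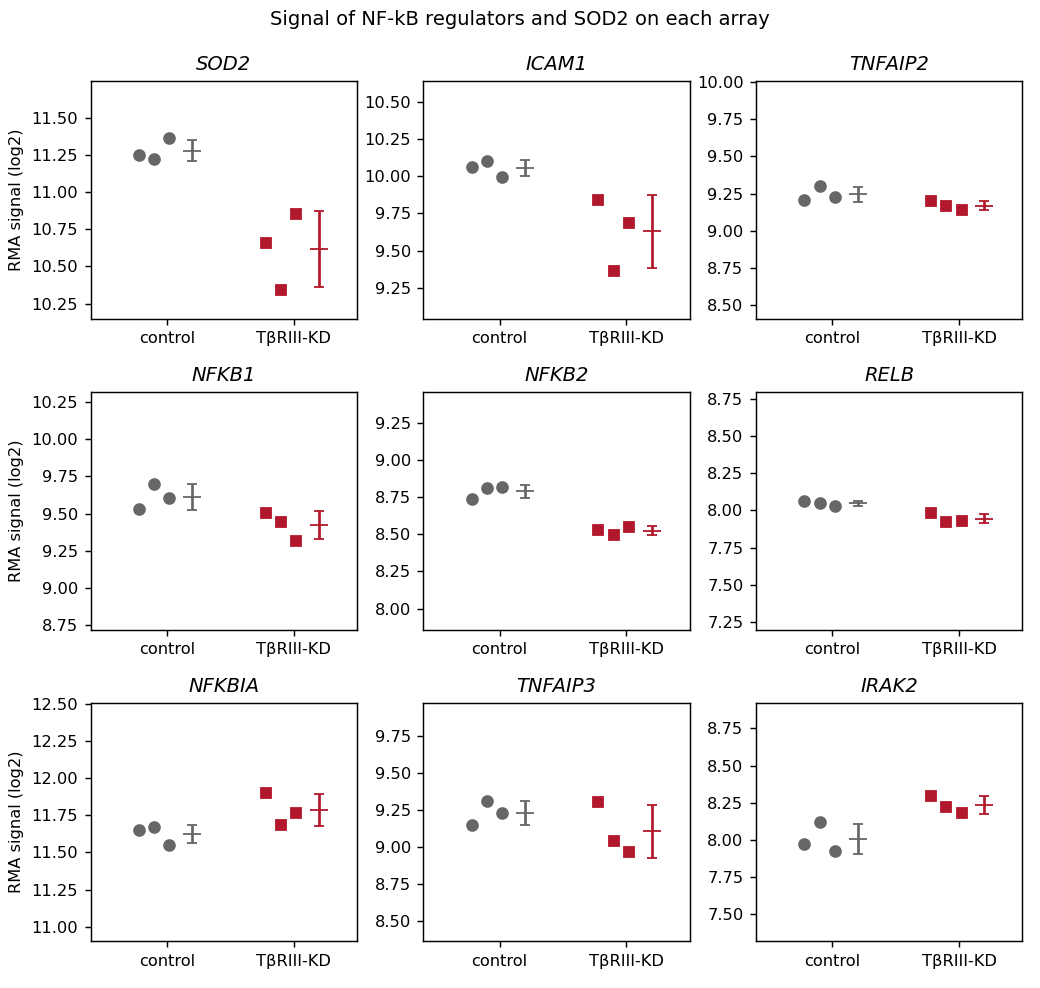
RMA signal (log2, vertical axis) of the 9 members on each SUM159 array, with grey circles for control and red squares for TβRIII-KD arrays 1 to 3 from left to right, and the mean ± SD of 3 arrays beside them. Every panel spans the same log2 range, and the SOD2 values reach from 10.34 to 10.85 in TβRIII-KD and from 11.22 to 11.36 in controls.

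The other superoxide dismutases did not pass the test. SOD1, the copper-zinc enzyme of the cytosol, had a log2 fold change of 0.14 (95% confidence interval -0.03 to 0.31, adjusted p = 0.444). SOD3, the secreted enzyme, had one of -0.21 (interval -0.42 to 0.0041, adjusted p = 0.340), and CCS, the copper chaperone of SOD1, one of 0.03 (interval -0.16 to 0.21, adjusted p = 0.923). Of these 4 genes, 1 passed the cutoff, which was SOD2, and the median log2 fold change was -0.09. A difference between the fold change of SOD2 and those of its relatives was not tested.

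Other targets among the members were ICAM1 and TNFAIP2. ICAM1, a ligand of leukocyte integrins, had log2 signals of 10.06, 10.10 and 9.996 on control arrays 1 to 3 and of 9.84, 9.36 and 9.68 on TβRIII-KD arrays 1 to 3. The groups did not overlap, and the lowest array was TβRIII-KD 2, as for SOD2. The log2 fold change of -0.43 (SE 0.12, interval -0.70 to -0.16) did not pass the test (adjusted p = 0.107, limma), and its adjusted p lay between 0.0581 and 0.350 over all alternatives. TNFAIP2, a protein with similarity to an exocyst subunit that was found as a TNF-induced gene, had 9.21, 9.30 and 9.23 on control arrays and 9.20, 9.17 and 9.14 on TβRIII-KD arrays. These values do not overlap, but the gap between the groups is small beside the spread within them, and the log2 fold change was -0.08 (interval -0.23 to 0.08, adjusted p = 0.668).

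Among relatives of ICAM1, ICAM2 had the smallest p, with a log2 fold change of -0.34 (adjusted p = 0.0851, SE 0.09). Of 7 ICAM and related adhesion receptors, 0 passed the cutoff in limma and 2 had an unadjusted p under 0.05, ICAM1 and ICAM2. Of 8 TNF alpha induced proteins, 0 passed the cutoff and 1 had an unadjusted p under 0.05, TNFAIP8L3, with a log2 fold change of -0.26 (adjusted p = 0.182).

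The subunits of NF-κB had lower means in TβRIII-KD throughout, by small amounts that did not pass the test. NFKB2, which encodes the p100 precursor of p52 in the non-canonical branch, had log2 signals of 8.74, 8.81 and 8.82 on control arrays 1 to 3 and 8.53, 8.49 and 8.55 on TβRIII-KD arrays 1 to 3. The arrays of each group lay close together and the groups did not overlap. The log2 fold change was -0.27 (SE 0.07, interval -0.42 to -0.11, adjusted p = 0.0815). With only transcript clusters at or above the median signal tested, the adjusted p was 0.0424, and it lay between 0.0424 and 0.275 over all alternatives.

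NFKB1, which encodes the p105 precursor of p50, had 9.53, 9.70 and 9.61 on control arrays and 9.50, 9.45 and 9.32 on TβRIII-KD arrays. The highest TβRIII-KD array lay just below the lowest control array, and the log2 fold change was -0.19 (adjusted p = 0.324, SE 0.08). RELB, the partner of p52, had 8.06, 8.05 and 8.03 in controls and 7.98, 7.92 and 7.93 in TβRIII-KD, a narrow separation with a log2 fold change of -0.10 (adjusted p = 0.531, SE 0.07). RELA, the p65 subunit of the canonical dimer, had a log2 fold change of -0.05 (SE 0.07) and REL one of -0.14 (SE 0.09), with overlapping groups for both. Of the 5 subunits, 0 passed the cutoff in limma, 2 had an unadjusted p under 0.05 (NFKB1 and NFKB2), and the median log2 fold change was -0.14.

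IκB proteins differed in direction among themselves, and none of the 6 passed the test. NFKBIA had log2 signals of 11.65, 11.67 and 11.55 on control arrays 1 to 3 and 11.90, 11.69 and 11.77 on TβRIII-KD arrays 1 to 3, so that every TβRIII-KD array lay above every control array, by a margin that is small for TβRIII-KD 2. Its log2 fold change was 0.16 (SE 0.08, interval -0.03 to 0.35, adjusted p = 0.407). NFKBIZ, an IκB protein that acts in the nucleus on a subset of targets, had the largest size of fold change among the 6 genes, -0.41 (adjusted p = 0.0541, SE 0.09). BCL3, a nuclear IκB protein that binds p50 and p52, had one of -0.35 (adjusted p = 0.0699, SE 0.08). The groups did not overlap for either gene. The adjusted p of NFKBIZ lay between 0.0317 and 0.231 over the alternatives and that of BCL3 between 0.0433 and 0.248. NFKBID had a log2 fold change of -0.04, and NFKBIB and NFKBIE had ones of -0.0023 and -0.0062, whose sign turned when quantile normalization was repeated (0.016 and 0.011). Of the 6 genes, 0 passed the cutoff in limma and 2 had an unadjusted p under 0.05, NFKBIZ and BCL3.

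**Figure D2:**
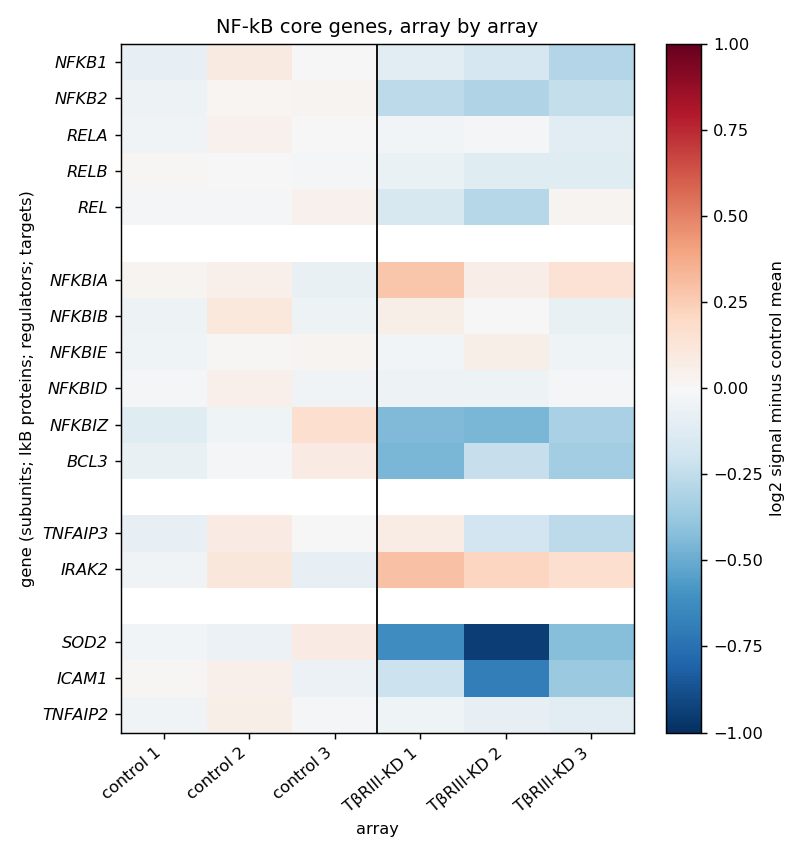
Log2 signal minus the gene's mean over the 3 control arrays (colour, blue for lower and red for higher) for NF-κB subunits, IκB proteins, the regulators TNFAIP3 and IRAK2 and the targets SOD2, ICAM1 and TNFAIP2 (rows) on each SUM159 array (columns, controls left of the line). The darkest cell is SOD2 on TβRIII-KD 2, and among the IκB proteins NFKBIA is above its control mean while NFKBIZ and BCL3 are below theirs on all TβRIII-KD arrays.

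Regulators upstream of IκB kinase among the members were TNFAIP3 and IRAK2. TNFAIP3 encodes A20, a ubiquitin-editing enzyme that shuts off signalling to NF-κB. Its log2 signals were 9.15, 9.31 and 9.23 on control arrays 1 to 3 and 9.31, 9.04 and 8.97 on TβRIII-KD arrays 1 to 3. It was the member whose groups overlapped, since TβRIII-KD 1 lay among the controls, and its log2 fold change was -0.13 (SE 0.10, interval -0.36 to 0.10, adjusted p = 0.626). IRAK2, a kinase-like protein of the complex that forms below interleukin 1 and Toll-like receptors, had 7.97, 8.12 and 7.93 on control arrays and 8.30, 8.22 and 8.18 on TβRIII-KD arrays. All of its TβRIII-KD values were above all of its control values, and the log2 fold change was 0.23 (SE 0.08, interval 0.04 to 0.41, adjusted p = 0.207). Over all alternatives, the adjusted p lay between 0.249 and 0.847 for TNFAIP3 and between 0.128 and 0.505 for IRAK2.

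**Figure D3:**
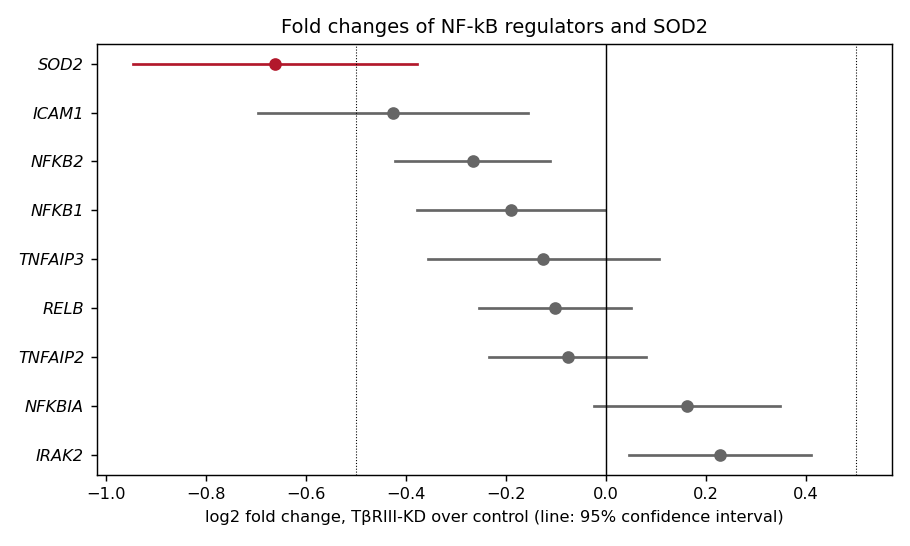
TβRIII-KD signal over control signal as a log2 fold change (horizontal axis) for the 9 members, where each dot is a fold change and each bar its 95% limma interval over 3 arrays a group, with dotted lines at the fold limit of 0.5 and the gene past the cutoff in red. SOD2 lies at -0.66, and NFKBIA (0.16) and IRAK2 (0.23) are the members above 0.

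Promoter windows of several members hold matches to the κB consensus, which describe letters and not binding. The matches of the pathway's own measured regulators are shown because SOD2, the member that passed the test, had no match. The κB consensus of 10 bases was searched on both strands in RefSeq promoter windows of GRCh38.p14, which run from 250 bases before to 50 bases after a transcription start. Windows were held for 9 of the 10 members, BIRC3 included, and not for RELB. The consensus was found for 5 of these 9, and over all genes with a window 13.3% had a match. In these sequences, written 5′ to 3′ on the gene's strand, capitals mark the match and lower case the flanking bases.
NFKBIA, chr14:35404811-35404840, minus strand: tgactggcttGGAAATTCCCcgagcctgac
NFKB1, chr4:102501300-102501329, plus strand: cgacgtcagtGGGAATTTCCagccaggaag
NFKB2, chr10:102394461-102394490, plus strand: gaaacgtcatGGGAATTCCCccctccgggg
NFKB2, chr10:102395674-102395703, plus strand: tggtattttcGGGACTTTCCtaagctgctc
TNFAIP3, chr6:137867182-137867211, plus strand: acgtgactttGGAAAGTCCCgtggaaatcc
TNFAIP3, chr6:137867194-137867223, plus strand: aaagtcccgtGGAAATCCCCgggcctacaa

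The NFKBIA match began 81 bases before the start, that of NFKB1 49 bases before it and those of TNFAIP3 67 and 55 bases before it. NFKB2 had 5 matches over 3 windows, 2 of which overlap by all but 1 base, and 2 of the 5 are printed. SOD2 (4 windows), ICAM1, TNFAIP2 and IRAK2 had no match to the consensus within these windows, which says nothing of other sites or of binding. BIRC3 had 2 matches, which are not printed, and no fold change. The measured genes with a match had log2 fold changes from -0.27 (NFKB2) to 0.16 (NFKBIA), and those without from -0.66 (SOD2) to 0.23 (IRAK2).

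Signals reach NF-κB through receptors, and this list held some of the largest fold changes among the pathway lists. It had 21 genes measured, which are receptors and ligands of the interleukin 1 and TNF families and Toll-like receptors. At the cutoff 3 were lower and 1 was higher in TβRIII-KD, against 1.49% and 0.777% of all transcript clusters. The other 17 did not pass the test, and the median log2 fold change was 0.02. IL1R2, a decoy receptor that binds interleukin 1 without signalling, fell by 1.81 in log2 units (adjusted p = 0.00731, SE 0.25), so that controls had 3.51 times the signal. With the unpaired test of the study's general statistics in place of limma, its adjusted p was 0.181, and those of TLR2 and TLR4 were 0.0837 and 0.109, while all 3 kept an adjusted p under 0.05 in every other alternative that tested them. TLR2 and TLR4, receptors for bacterial lipoproteins and lipopolysaccharide, also passed, with log2 fold changes of -1.01 (adjusted p = 0.00127) and -0.75 (adjusted p = 0.00399). TNFRSF1B, the second TNF receptor, rose by 0.52 (adjusted p = 0.0139, SE 0.08). Leaving out control 1 took the adjusted p of TNFRSF1B to 0.0755 and leaving out control 3 to 0.0659, within a range of 0.00866 to 0.134 for the alternatives.

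Between receptor and IκB kinase, fewer genes passed the cutoff, and a difference between the lists was not tested. Of 15 adaptors and kinases near the receptors, 1 was lower and 0 were higher, against 1.49% and 0.777% of all transcript clusters. The median log2 fold change was -0.11. The lower gene was TRAF3IP2, the adaptor of interleukin 17 receptors, which fell by 0.56 (adjusted p = 0.00994, SE 0.08). Its adjusted p was 0.0591 without control 1 (0.00583 to 0.121 over all alternatives). Of 10 genes of the IκB kinase complex and its upstream kinases, 0 passed the cutoff in limma, and the median was -0.03. In limma 5 of these 10 had an unadjusted p under 0.05, against 15.2% of all transcript clusters. Without the fold limit, TAB2, which links ubiquitin chains to the kinase TAK1, passed with a log2 fold change of 0.42 (adjusted p = 0.0190, SE 0.07). MAP3K8, a kinase bound by p105 and named after its values were seen, also passed, with one of -0.45 (adjusted p = 0.0429, SE 0.10). MAP3K8 was not run through the alternatives. The adjusted p of TAB2 was 0.0542 to 0.0994 without any 1 array except TβRIII-KD 3 (0.0101 to 0.10 over all alternatives). Of 15 ubiquitin ligases and deubiquitinases of the pathway, 0 passed in limma and 2 had an unadjusted p under 0.05, with a median of 0.01. TNIP3, a partner of A20, had the smallest p, with a log2 fold change of -0.60 (adjusted p = 0.151, SE 0.19). Of 6 inhibitor of apoptosis genes measured, a family whose missing member is BIRC3, 0 passed and BIRC5, the mitotic protein survivin, alone had an unadjusted p under 0.05 (log2 fold change 0.44, SE 0.16, adjusted p = 0.226).

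**Figure D4:**
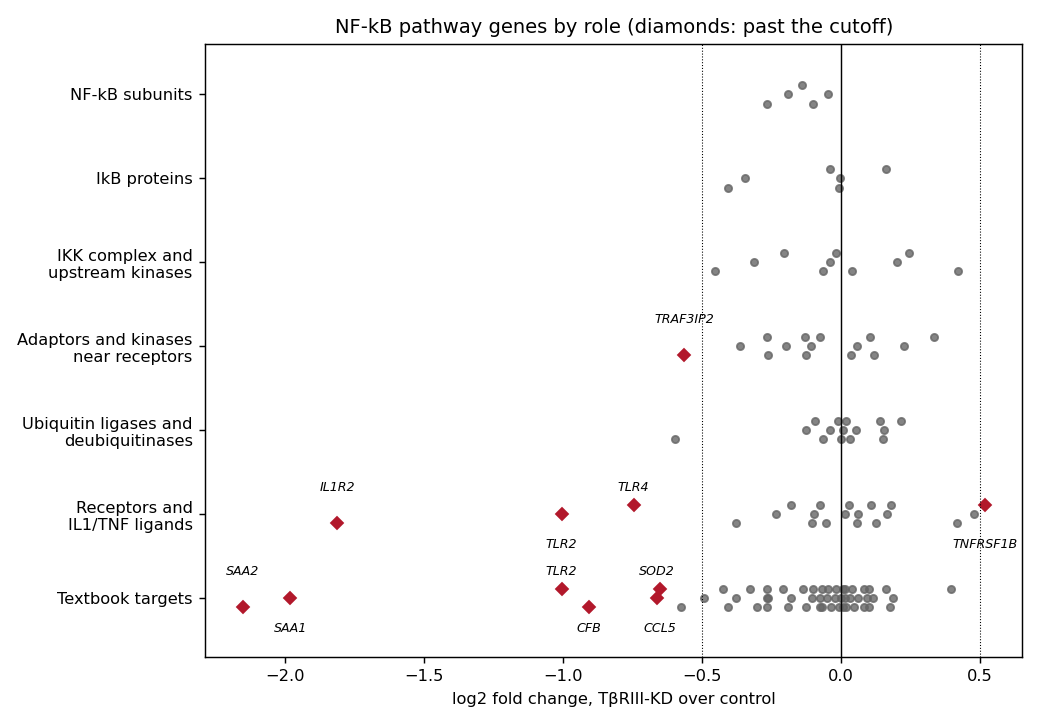
TβRIII-KD signal over control signal as a log2 fold change (horizontal axis) for the measured genes of 7 NF-κB pathway lists (rows), with 1 dot per gene, red diamonds and names for genes past the cutoff and dotted lines at the fold limit of 0.5. The subunits and IκB proteins lie between -0.41 and 0.16, while the receptors reach -1.81 (IL1R2) and the targets -2.15 (SAA2).

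Among textbook NF-κB targets, the genes that passed the test were all lower after knockdown. At the cutoff 6 of the 54 targets measured were lower and 0 were higher, against 1.49% and 0.777% of all transcript clusters. Of the 54, 47 did not pass an adjusted p of 0.05, which 3.35% of all transcript clusters passed. The median log2 fold change was -0.07. The genes past the cutoff were SOD2, the chemokine CCL5 (-0.65, SE 0.12, adjusted p = 0.0234), the complement factor CFB (-0.91, SE 0.08), TLR2 and the acute-phase proteins SAA1 (-1.98, SE 0.16) and SAA2 (-2.15, SE 0.12). SAA1 and SAA2 are near-identical copies whose probes may share signal, and CFB is measured by 3 transcript clusters of the same symbol, of which the brightest was used. By the same unpaired test the adjusted p was 0.0583 for CFB, 0.0884 for SAA1 and 0.0583 for SAA2, and these kept one under 0.05 in every other alternative that tested them. IL32, a cytokine named after its values were seen, passed without the fold limit (-0.49, SE 0.08, adjusted p = 0.0138). It was not run through the alternatives. The adjusted p of CCL5 was 0.0621 to 0.0961 without any 1 array except TβRIII-KD 3 (0.00545 to 0.218 over all alternatives). The target list contains 8 of the 9 measured members, and it was written with earlier results of these arrays known.

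Genes whose values ran closest to those of SOD2 were found by the root mean square difference over the 6 arrays, after each gene's control mean was subtracted. Of 18275 other genes, CCL5 was nearest (0.0353), then RNF43, a ubiquitin ligase of Wnt receptors (0.0566), GBP2, an interferon-induced GTPase (0.0619), KITLG, the ligand of the receptor KIT (0.0713), and LPCAT1, a phospholipid-remodelling enzyme (0.0786). Their log2 fold changes lay between -0.67 (LPCAT1) and -0.58 (KITLG), and for each of them TβRIII-KD 2 was the lowest array and TβRIII-KD 3 the highest of the TβRIII-KD arrays, the order seen for SOD2. Among the members, ICAM1 was nearest to SOD2 at place 243 (0.209), followed by NFKB2 at place 890 (0.311), and IRAK2 was farthest at place 16739 (0.656). The measure ranks genes of like size and order, so the shared array order follows from how these genes were picked. On the first principal component of all transcript clusters (49.2% of the variance), TβRIII-KD 2 also lay farthest from the controls and TβRIII-KD 3 nearest. The measure is a description and carries no test.

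**Figure D5:**
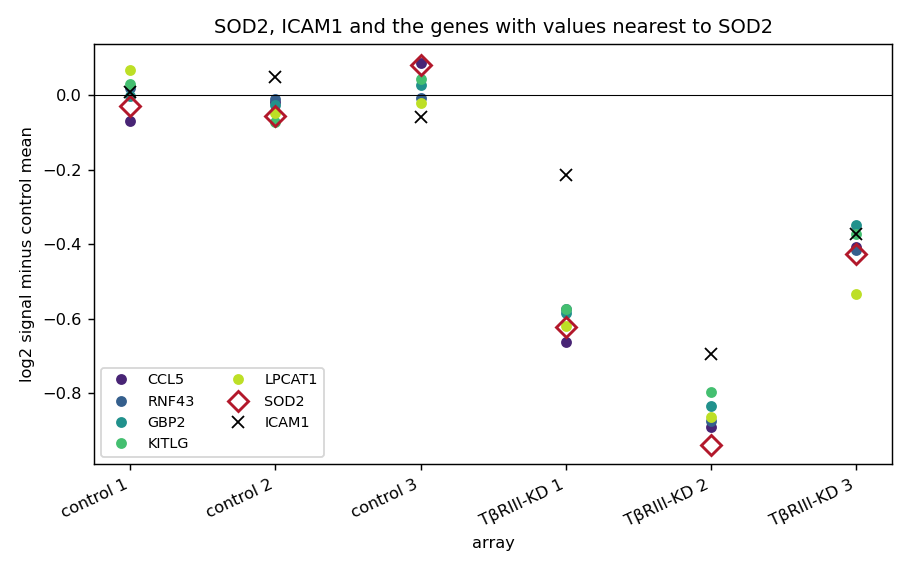
Log2 signal minus the control mean (vertical axis) on each SUM159 array (horizontal axis) for SOD2 (red diamonds), the 5 genes nearest to it (coloured dots) and ICAM1 (crosses). SOD2 and the 5 genes are lowest on TβRIII-KD 2, and ICAM1 lies above SOD2 on each TβRIII-KD array.

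Markers of other cell types were measured beside these results. Of 10 leukocyte markers, 0 passed in limma and 0 had an unadjusted p under 0.05. Their log2 signals summed to between 61.0 and 61.6 on control arrays and between 61.8 and 62.2 on TβRIII-KD arrays, with signals from percentile 3.20 (PTPRC, the pan-leukocyte gene) to 91.2 (CD68, a lysosomal protein abundant in macrophages), and with CD14 at 31.9. The lowest p was that of NCAM1, a natural killer cell marker, with a log2 fold change of 0.25 (adjusted p = 0.369). Of 6 endothelial markers, 2 were lower at the cutoff in limma, PECAM1 (-1.04, SE 0.10) and KDR (-1.73, SE 0.20). The sums were 41.0 to 41.8 on control and 38.2 to 39.5 on TβRIII-KD arrays, with signals at percentile 74.1 for KDR and 39.2 for PECAM1. By the same unpaired test the adjusted p was 0.147 for KDR and 0.0853 for PECAM1. The other endothelial markers lay between percentile 12.2 (TEK) and 27.7 (CDH5), with VWF at 17.0, and VWF and CDH5 had log2 fold changes of 0.08 and -0.16. Of 8 fibroblast markers, 0 passed in limma and 3 had an unadjusted p under 0.05. The lowest p was that of FAP (-0.68, SE 0.15, adjusted p = 0.0534), and the others were PDGFRA (-0.40, adjusted p = 0.0738) and PDGFRB (-0.54, adjusted p = 0.117). Fibroblast marker signals ran from percentile 0.790 (LUM) to 94.9 (PDGFRA), with FAP at 16.8 and PDGFRB at 89.0. The sums were 63.8 to 65.1 on control and 62.0 to 63.0 on TβRIII-KD arrays. The part of these markers in the result for SOD2 was not tested.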

How the data were processed

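The deposited values are log2 signals that the authors made with RMA (background correction, quantile normalization and a summary per transcript cluster) in the oligo package of R 3.0.1. For oligo, the version is not given in the sources used here. No counts underlie arrays, so their number limits the precision. All 6 arrays were grouped by label and compared in R 4.3.3 with limma 3.58.1 (empirical Bayes, two-sided), with Benjamini-Hochberg adjustment over 22148 transcript clusters and no filter or block. SE is limma's moderated standard error. The procedure was tested on simulated data. A gene was represented by its brightest transcript cluster with 1 symbol (19129 have 1, 1735 several and 1284 none), with symbols updated through RefSeq GRCh38.p14.

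The members, lists and tests were chosen with earlier results of these data known. The named genes are the members, TGFBR3, GAPDH, all subunits, IκB proteins and superoxide dismutases, the genes past the cutoff of each list (otherwise its smallest p) and the 5 genes nearest to SOD2. Alternatives were a trended or robust variance, array weights, the unpaired test of the study's general statistics (the study itself used limma on these arrays), a signal filter, an annotation filter, 2 rescalings, a replicate block, other fold limits and leaving out each array.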

Additional observations from a re-analysis of the deposited data

How the results depend on the processing

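All 9 members kept their direction under the 15 alternatives to their log2 fold change. Several of these could not change it. A trended or robust variance, the t-test, the signal and annotation filters and the replicate block leave the fold change as it is and alter the p-value alone. Centring the arrays on their medians moved it little. SOD2 passed the threshold in 10 of the 15 alternatives. The study used limma on these arrays, and an unpaired t-test stands in its general statistics. By that methods' t-test, Benjamini-Hochberg adjusted, its fold change of -0.66 did not pass (adjusted p = 0.229), nor did that of TGFBR3 (-0.79, adjusted p = 0.198), and 1 transcript cluster was higher and 16 lower, against 172 and 329. Leaving out 1 array at a time gave -0.78 to -0.52 for SOD2 and -0.89 to -0.67 for TGFBR3, whose adjusted p was 0.0770 without control 1, 0.0554 without control 2 and 0.0625 without TβRIII-KD 2. The same step gave 88 to 251 transcript clusters higher, with 88 without control 1, 110 without control 3 and 104 without TβRIII-KD 2, and 215 to 387 lower, with 216 without control 1 and 215 without TβRIII-KD 2. It left 0 to 1 members lower, 0 without control 1, 2 or 3 or TβRIII-KD 1. The count of members was also 0 by the t-test and with a fold limit of 1. Testing only signals at or above the median gave 114 higher, out of fewer transcript clusters tested, so this count is not on the same base as 172. Over all transcript clusters, no fold limit gave 275 higher. Near 0, signs turned: GAPDH with array weights (-0.0066), with centring (-0.00045) and by array left out (-0.028 to 0.026), NFKBIB with weights (0.023), with quantile normalization (0.016) and by array left out (-0.034 to 0.052), NFKBIE with quantile normalization (0.011) and by array left out (-0.037 to 0.014), and CCS by array left out (-0.014 to 0.093). The causes were not tested. Whether samples of the same number share more than a number is not settled here. The correlations of their deviations were -0.06, 0.11 and 0.31, and those of samples with unlike numbers ran from -0.39 to 0.34. With the replicate block SOD2 stayed at -0.66 (adjusted p = 0.00741), NFKBIZ passed (-0.41, adjusted p = 0.0317), and 229 transcript clusters were higher and 387 lower.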

Other observations

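Stress-response and reference genes were also measured. Of 9 stress and immediate-early genes, 0 passed the cutoff in limma, and 4 had an unadjusted p under 0.05. Without the fold limit JUN, a subunit of the transcription factor AP-1, passed with a log2 fold change of -0.47 (adjusted p = 0.0320, SE 0.09, and 0.0169 to 0.194 over all alternatives), with an adjusted p of 0.0742 to 0.143 without any 1 array except TβRIII-KD 3. Of 6 reference genes, 0 passed and 1 had an unadjusted p under 0.05, ACTB, with a log2 fold change of -0.19 (adjusted p = 0.252). GAPDH had a log2 fold change of 0.00062 (SE 0.07), and its sign turned with array medians centred (-0.00045). Of 9 mesenchymal breast cancer markers, 0 passed and 1 had an unadjusted p under 0.05, SNAI2, a transcription factor of mesenchymal cells, with a log2 fold change of 0.27 (adjusted p = 0.0981).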
